A study of Mus musculus with 4 samples.

Results

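Cells that carried NR2F1 signal at the cRE1–cRE2 peak near Gata2 were compared with the other cells of the same libraries. NR2F1 (COUP-TFI) binding had been profiled by single-cell CUT&Tag in sorted mouse hindbrain cells, in 2 WT and 2 Fam5snv/snv libraries. A member cell was chosen by its signal in 1 peak: in each library, the peak over the Fam5 SNV on chromosome 6 (position 88224892, mm10) was taken, and every cell with at least 2 cut sites in it was a member. By this rule 889 of 8963 cells were members, namely 235 of 2572 cells in WT replicate 1, 140 of 1377 in WT replicate 2, 281 of 2274 in Fam5snv/snv replicate 1 and 233 of 2740 in Fam5snv/snv replicate 2. Each member was compared with 3 other cells of its library that were nearest to it in total cut sites, so 2667 matched cells were used. The rule used the signal in this peak, so that signal is given as a description only, and the merged region around it was left out of every comparison.

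All embryos were at E10.5 and carried the Isl1MN-GFP transgene, which marks motor neurons. WT replicates 1 and 2 were pools of 26 and 26 embryos, and Fam5snv/snv replicates 1 and 2, homozygous for the A-to-G Fam5 SNV, were pools of 8 and 16. Tissue of rhombomere 4 (r4) and next to it was dissected and GFP-positive cells were sorted. The paper's general sorting method opened the gate to GFP-negative cells just before a sort ended, and it does not name CUT&Tag. Cells other than motor neurons may therefore be among the sorted cells. Each library is 1 pool, and the cells of a library are not replicates, so comparisons were made over the 4 libraries.

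GATA2 and its relative GATA3 are zinc-finger transcription factors that direct r4 motor neurons toward the inner-ear efferent (IEE) fate, whereas neurons in which they are low become facial branchial motor neurons (FBMN). HOXB1 gives r4 its identity, and ISL1 is a transcription factor of the motor neurons themselves. The elements cRE1 and cRE3 act as Gata2 enhancers and cRE2 as a silencer, and NR2F1, a nuclear receptor, recognizes the AGGTCA half-site, which cRE2 holds at the Fam5 SNV. In CUT&Tag, a transposase tethered to the antibody cuts DNA next to the bound protein, so a cut site reports binding nearby and not transcription. An ordinary fragment has an end at each of its cuts and so adds 2 cut sites to a peak.

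The sequences below are from the RefSeq mouse assembly of the same build (mm10, plus strand, 5′ to 3′). They show half-sites at the Fam5 SNV, inside the defining peak, and in the nearest tested region on each side. Those are called the cRE3 region and the downstream region, and the members' further signal in them is described below. The defining peak spanned 3203 to 4791 bases, so membership does not single out the cRE2 stretch shown. Capitals mark AGGTCA or its reverse complement TGACCT. The Fam5 SNV lies within the first capital run of the cRE2 sequence. cRE2, chr6:88224852-88224932: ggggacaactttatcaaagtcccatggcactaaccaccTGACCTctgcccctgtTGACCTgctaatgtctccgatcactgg
cRE3 region, chr6:88218913-88218948: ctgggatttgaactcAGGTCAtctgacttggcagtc
cRE3 region, chr6:88219381-88219416: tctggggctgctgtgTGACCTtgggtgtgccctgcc
cRE3 region, chr6:88219591-88219626: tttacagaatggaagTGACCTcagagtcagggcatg
cRE3 region, chr6:88221301-88221336: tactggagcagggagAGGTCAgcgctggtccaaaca
Downstream region, chr6:88235051-88235086: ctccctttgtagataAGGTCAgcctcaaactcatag
Downstream region, chr6:88235942-88235977: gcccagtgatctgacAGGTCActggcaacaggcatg
Downstream region, chr6:88236010-88236045: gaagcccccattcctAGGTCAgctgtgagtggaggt
Downstream region, chr6:88236283-88236318: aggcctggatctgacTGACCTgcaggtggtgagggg
Downstream region, chr6:88236879-88236914: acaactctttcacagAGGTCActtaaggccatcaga

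The half-site was searched on both strands as the exact letters AGGTCA. The cRE3 region held 4 matches in 5013 bases, the downstream region 5 in 3245 bases, the region over the upstream Gata2 promoter 4 in 7043 bases and that over the downstream promoter 1 in 3728 bases. Within 250 bases of the middle of a region, a match was present in 33.0% of the 32102 regions tested, and of these 4 regions only the downstream region had one there. The left-out region around the defining peak (88224013 to 88230426) held 8 matches, of which only those by the SNV are shown above. A match describes the letters and not a bound site.

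Members mostly held a single fragment in the defining peak. Exactly 2 cut sites were counted in 191 of the 235 members of WT replicate 1, in 114 of 140 in WT replicate 2, in 215 of 281 in Fam5snv/snv replicate 1 and in 184 of 233 in Fam5snv/snv replicate 2. Another 41, 25, 63 and 47 members had at least 4 cut sites, and the highest counts in a cell were 8, 8, 13 and 8. Odd counts were found in 3, 1, 5 and 3 members. Just outside the threshold, 5, 2, 7 and 1 cells had 1 cut site, and the other 2332, 1235, 1986 and 2506 cells had none. The members therefore held between 99.1% and 99.8% of the cut sites of this peak in each library.

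The share of members was 9.14% in WT replicate 1 (95% exact Clopper-Pearson interval 8.05% to 10.3%), 10.2% in WT replicate 2 (8.62% to 11.9%), 12.4% in Fam5snv/snv replicate 1 (11.0% to 13.8%) and 8.50% in Fam5snv/snv replicate 2 (7.49% to 9.61%). The mutant libraries had the highest and the lowest share, so the genotypes overlapped. These intervals cover counting error only, as do all intervals on shares of cells here. The peak was called separately in each library and spanned 3203, 3555, 4791 and 3359 bases in this order, so the library with the highest share also had the widest peak. The cells came from libraries of 3083946, 3580517, 8967987 and 10341894 cut sites in 42168, 151951, 137996 and 170993 peaks. Between 21 and 29 cell barcodes of a library also occurred in another library, 2 or 3 of them in members, and no barcode was a member in both libraries of any pair.

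Members were deeper than the other cells of their library. The median of cut sites outside the defining region was 1323 in members against 842 in the other cells of WT replicate 1, 2656 against 1779 in WT replicate 2, 4250 against 2559 in Fam5snv/snv replicate 1 and 3598 against 2954 in Fam5snv/snv replicate 2. When the cells of a library were divided by depth into 4 groups of like size, the share of members went from 4.21% in the shallowest group to 16.3% in the deepest in WT replicate 1, and from 4.94% to 18.8% in WT replicate 2. The corresponding shares were 5.82% and 24.4% in Fam5snv/snv replicate 1, and 5.99% and 12.7% in Fam5snv/snv replicate 2. A cell with more cut sites anywhere thus more often had a fragment here, which is why members were set against cells of like depth.

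**Figure D1:**
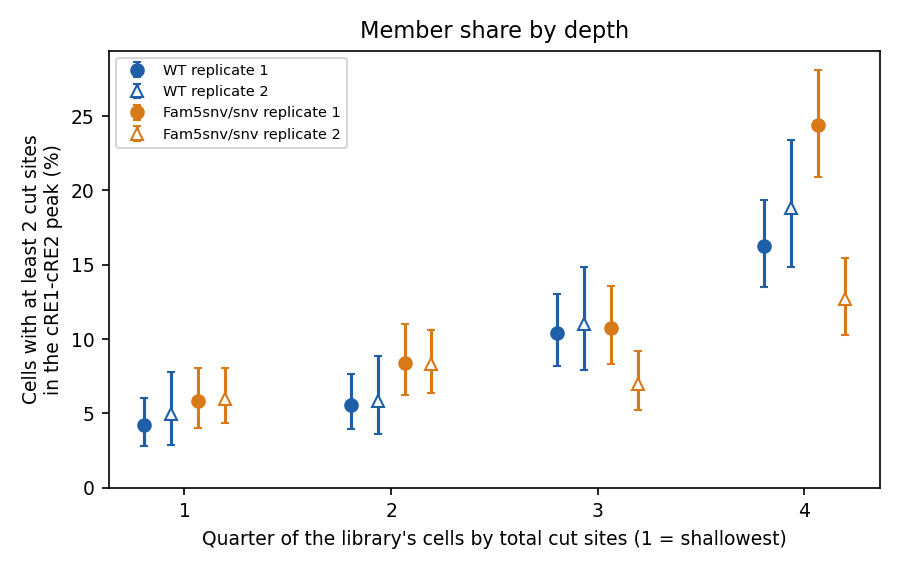
Share of cells that were members (y axis, percent, from 0) in 4 depth groups of a library's cells, ordered by total cut sites (x axis, 1 to 4), with WT in blue, Fam5snv/snv in orange, filled circles for replicate 1, open triangles for replicate 2 and bars for 95% exact binomial intervals. The deepest group had the highest share in every library, from 12.7% to 24.4%.

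Matching made the medians alike, at 1323 and 1323, 2656 and 2658, 4250 and 4262, and 3598 and 3599 cut sites in members and matched cells. The deepest members had no equal, however. The mean was 4683 in members against 3583 in matched cells of WT replicate 2 and 6878 against 5211 in Fam5snv/snv replicate 1, where the deepest members reached 59009 and 65808 cut sites and the deepest matched cells 28790 and 36493. In WT replicate 1 and Fam5snv/snv replicate 2 the means were close, at 1786 against 1715 and 4755 against 4676. Values that rest on WT replicate 2 and Fam5snv/snv replicate 1 were therefore also computed without the deepest cells. No doublet caller was run, so barcodes that hold more than 1 cell may be among the deepest.

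Outside the defining peak, member cells had more NR2F1 signal in its close neighbourhood. Of all their cut sites, the share in peaks within 10 kb was 1.73-fold that of matched cells as the mean of the 4 libraries, and it was higher in 4 of 4 libraries. Members of WT replicate 1 had 76 cut sites there of 419762 in all, against 94 of 1209294 in matched cells. In WT replicate 2 the counts were 58 of 655585 against 89 of 1505008. Fam5snv/snv replicate 1 had 176 of 1932743 against 308 of 4393247, and Fam5snv/snv replicate 2 had 109 of 1107903 against 163 of 3268490. Per library the log2 ratio was 1.22, 0.58, 0.38 and 0.98 in the order above, a mean of 0.79 ± 0.38 (SD, n = 4 libraries). In the exact sign-flip permutation test over libraries (two-sided), 2 of 16 sign patterns were as extreme, which is the smallest p that 4 libraries allow and cannot pass 0.05. Adjusted over the 10 measures tested this way, it was p = 0.208 by the same exact test. This smallest p is called the floor of the exact test below.

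Counted as cells, 170 of 889 members and 277 of 2667 matched cells had at least 1 cut site within 10 kb. The shares were 16.2% against 5.96% in WT replicate 1, 16.4% against 9.05% in WT replicate 2, 22.8% against 15.1% in Fam5snv/snv replicate 1 and 19.3% against 10.0% in Fam5snv/snv replicate 2. The member share was thus higher by 8.65 ± 1.34 percentage points (SD, n = 4, higher in 4 of 4 libraries, at the floor of the exact test). The exact binomial intervals did not overlap in WT replicate 1 (11.7% to 21.5% and 4.33% to 7.97%), Fam5snv/snv replicate 1 (18.0% to 28.1% and 12.7% to 17.7%) and Fam5snv/snv replicate 2 (14.5% to 24.98% and 7.89% to 12.5%), and overlapped in WT replicate 2 (10.7% to 23.6% and 6.48% to 12.2%). They cover counting error within a pool, whose cells are not replicates, so their overlap is a description only.

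The region nearest upstream, on the Gata2 side, is called the cRE3 region here by its place. Whether it holds mouse cRE3 was not checked. This region held 32 of these 76 cut sites of members in WT replicate 1, 29 of 58 in WT replicate 2, 90 of 176 in Fam5snv/snv replicate 1 and 52 of 109 in Fam5snv/snv replicate 2. It spans 88218454 to 88223466 of chromosome 6 and overlaps the start of Dnajb8, a chaperone gene. The matched cells, 3 for each member, had 32, 49, 136 and 70 in the same order. Scaled to 1000000 cut sites (CPM), the members had 76.2, 44.2, 46.6 and 46.9 and the matched cells 26.5, 32.6, 31.0 and 21.4, so each member value lay above each matched value. The log2 fold change was 0.91 (standard error 0.24, 95% interval 0.44 to 1.38), with an unadjusted p = 0.0002 and an adjusted p = 0.583 over all 32102 regions (edgeR quasi-likelihood test, Benjamini-Hochberg). By unadjusted p it ranked 11 of 32102, and 6 among the regions that were higher in members.

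The gap between the nearest peak of the cRE3 region and the defining peak was 4340 and 2545 bases in WT replicates 1 and 2. It was 805 and 1086 bases in Fam5snv/snv replicates 1 and 2. Whether single fragments reached into both peaks was not tested. In Fam5snv/snv replicate 1 the region is made of a pair of peaks. The one farther from the defining peak (88218454 to 88221102) held 72 cut sites of members and 108 of matched cells, and the other, over the start of Dnajb8, held 18 and 28. The share of cells with a cut site in the cRE3 region was 6.81% of members against 2.27% of matched cells in WT replicate 1, 13 of 140 against 21 of 420 cells in WT replicate 2, 13.2% against 7.24% in Fam5snv/snv replicate 1 and 10.3% against 4.29% in Fam5snv/snv replicate 2. These differences averaged 5.19 ± 0.906 percentage points (SD, n = 4, higher in 4 of 4 libraries, at the floor of the exact test), from 90 of 889 members and 128 of 2667 matched cells.

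The nearest tested region on the other side, from 88234847 to 88238091, was also higher in every library. It lies in an intron of a long Dnajb8 transcript and overlaps no annotated exon. Members and matched cells had 34 and 53 cut sites there in WT replicate 1, 24 and 32 in WT replicate 2, 65 and 125 in Fam5snv/snv replicate 1, and 41 and 75 in Fam5snv/snv replicate 2. The levels in CPM were 81.0, 36.6, 33.6 and 37.0 in members and 43.8, 21.3, 28.5 and 22.9 in matched cells, so that across libraries the ranges overlapped although each library moved the same way. The log2 fold change was 0.63 (standard error 0.25, 95% interval 0.15 to 1.12, unadjusted p = 0.0112, adjusted p = 1.00 by edgeR with Benjamini-Hochberg adjustment). A cut site was found in 71 of 889 members and 131 of 2667 matched cells, a difference of 3.09 ± 0.175 percentage points (SD, n = 4, higher in 4 of 4 libraries, at the floor of the exact test). Its edge was 8140, 7733, 5784 and 7585 bases from the defining peak.

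Few cells had cut sites in both the cRE3 and the downstream region. With so few cells holding signal in either region, this low overlap does not set apart groups of cells. Among members, 0 cells of WT replicate 1, 2 of WT replicate 2, 6 of Fam5snv/snv replicate 1 and 2 of Fam5snv/snv replicate 2 had cut sites in both regions, whereas 16, 11, 31 and 22 had them in the cRE3 region only and 16, 8, 20 and 17 in the downstream region only. Neither region had a cut site in 203, 119, 224 and 192 members. Of the matched cells, 3, 3, 9 and 5 had cut sites in both regions. Another 13, 18, 52 and 25 had them in the cRE3 region only and 22, 14, 45 and 30 in the downstream region only. Most cells selected on the cRE1–cRE2 peak thus showed no signal in the cRE3 region or downstream at this depth.

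Of the 9 tested regions within 100 kb of the SNV, the cRE3 and downstream regions were the ones with an unadjusted p under 0.05, both higher, beside 1.8% of all tested regions that were higher by this measure. They were also the 2 of 9 that were higher in every library, beside 4.97% of all tested regions. None of the 9 passed the adjusted threshold, beside 0.0187% of all tested regions in either direction. The remaining distal regions had few cut sites and wide intervals. That from 88215487 to 88216619, between Gata2 and the cRE3 region, had 10, 4, 19 and 8 cut sites in members and 9, 2, 45 and 16 in matched cells (log2 0.83, standard error 0.53). The others, in and before Eefsec, which encodes an elongation factor for selenocysteine, had log2 values from −0.33 (standard error 0.57) to 0.78 (standard error 0.57).

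**Figure D2:**
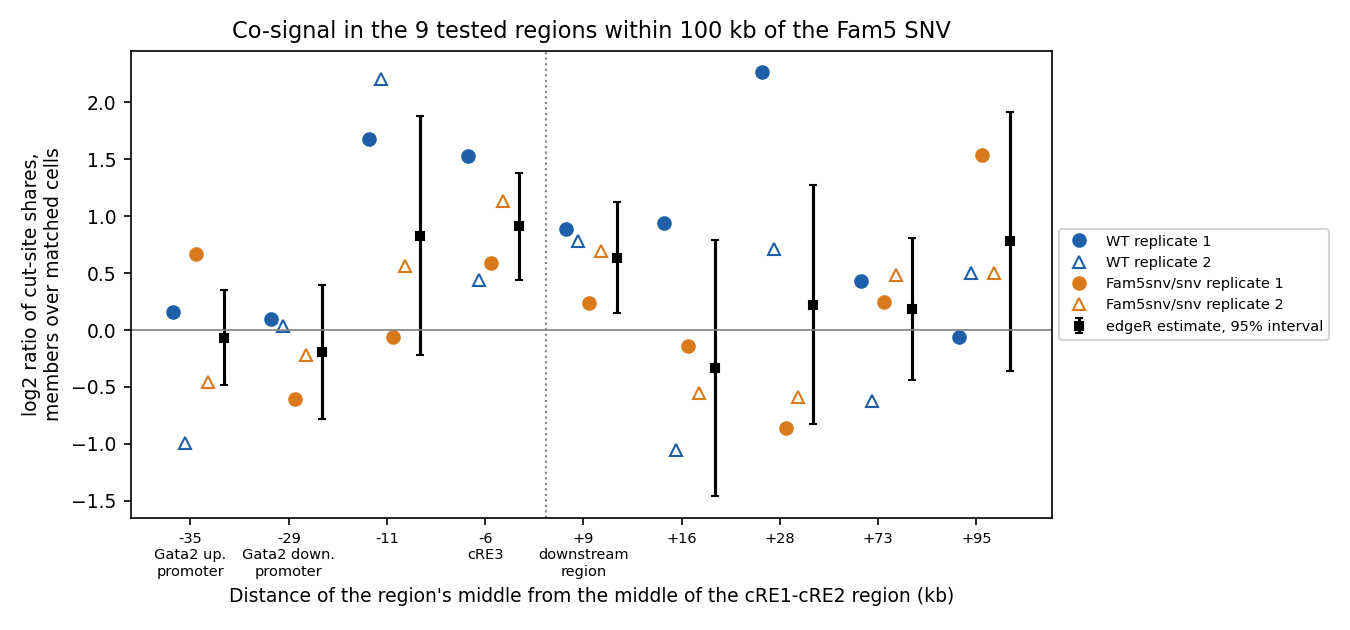
log2 ratio of cut-site shares, members over matched cells (y axis), in the 9 tested regions within 100 kb of the Fam5 SNV, placed in order along chromosome 6 and labelled with their distance in kb from the middle of the cRE1–cRE2 region (x axis; dotted line, the left-out region). Colored points are libraries and black squares are edgeR estimates with 95% intervals, of which that of the cRE3 region (0.44 to 1.38) and that of the downstream region (0.15 to 1.12) lie above 0.

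The merged regions over the promoters of Gata2 itself were not higher in members. The region over the upstream promoter, from 88188993 to 88196035, had 36, 23, 104 and 40 cut sites in members of the 4 libraries and 93, 105, 149 and 162 in matched cells. In CPM, these were 85.8, 35.1, 53.8 and 36.1 against 76.9, 69.8, 33.9 and 49.6, higher in members of replicate 1 and lower in those of replicate 2 for both genotypes. The log2 fold change was −0.07 (standard error 0.21, 95% interval −0.48 to 0.35, edgeR adjusted p = 1.00), a sign that turned under 5 of 15 alternatives. This region merges peaks. The peak over the start site at 88193891 held 13 cut sites of members and 19 of matched cells in WT replicate 1. It held 36 and 53 in Fam5snv/snv replicate 1 and 14 and 71 in Fam5snv/snv replicate 2. A peak further upstream held 23 and 73, 65 and 86, and 26 and 91 in these libraries. In WT replicate 2, 1 peak spanned the whole region. The peaks were not tested singly. The region over the downstream start site, from 88196125 to 88199852, had 16, 17, 35 and 18 cut sites in members and 43, 38, 121 and 62 in matched cells, which gave −0.19 on the log2 scale (standard error 0.30, 95% interval from −0.78 to 0.40, edgeR adjusted p = 1.00). Within libraries, the log2 ratio of the cRE3 region exceeded that of the downstream promoter by 1.09 ± 0.471 (SD, higher in 4 of 4, at the floor of the exact test) and that of the upstream promoter by 1.08 ± 0.776 (higher in 3 of 4, p = 0.25 by the same exact test). Gata2 is the only marker given for these cells. Signal at its promoters is not expression and was not higher over the merged regions, so no cell type is named here.

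**Figure D3:**
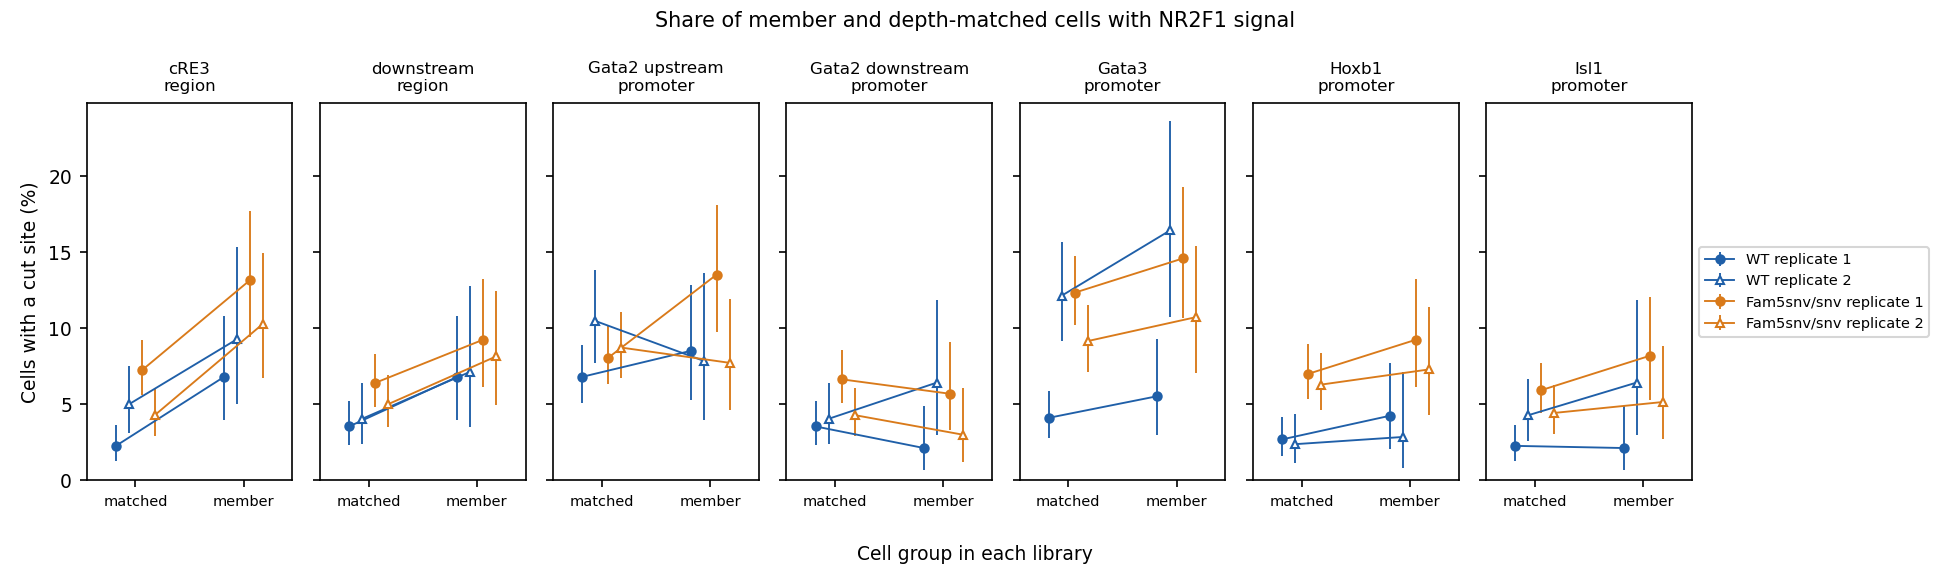
Share of cells with at least 1 cut site (y axis, percent, from 0) among matched cells and members of each library (x axis) in 7 regions, with lines joining the values of a library and bars for 95% exact binomial intervals. Members are above their matched cells in 4 of 4 libraries in the cRE3, downstream, Gata3 and Hoxb1 panels, by 5.19 percentage points on average in the cRE3 region and by 1.32 at Hoxb1, and in 2 of 4 for the upstream and 1 of 4 for the downstream Gata2 promoter.

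Along chromosome 6 the excess was largest next to the defining peak and small elsewhere. From 10 to 100 kb the log2 ratio averaged 0.13 ± 0.154 (higher in 3 of 4 libraries), from 100 to 1000 kb 0.06 ± 0.0515 (3 of 4), from 1000 to 10000 kb 0.04 ± 0.0335 (4 of 4) and beyond 0.04 ± 0.0139 (4 of 4; SD, n = 4 for each). The nearest bin exceeded the bin from 10 to 100 kb by 0.66 ± 0.371 (SD), in 4 of 4 libraries, at the floor of the exact test. Over whole chromosomes the mean log2 ratio ran from −0.05 to 0.04 among 20 chromosomes. Within 100 kb of the SNV as a whole, the mean was 0.35 ± 0.239 (SD, n = 4, higher in 4 of 4 libraries, at the floor of the exact test). Without WT replicate 1 it was 0.23, and the bins from 10 to 100 kb and from 1000 to 10000 kb were 0.068 and 0.024.

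**Figure D4:**
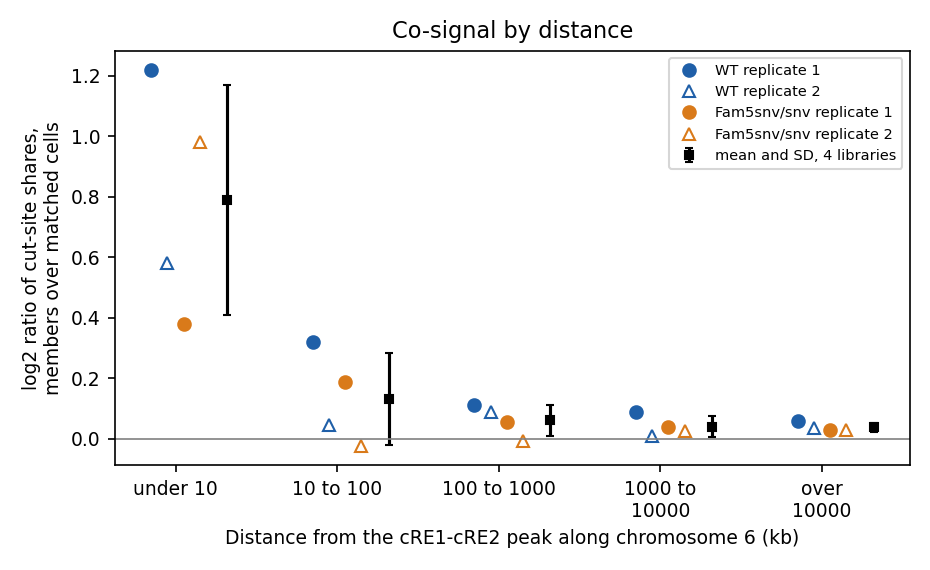
log2 ratio of cut-site shares, members over matched cells (y axis), for peaks of chromosome 6 grouped by distance from the defining peak (x axis, kb), with points for libraries and black squares with bars for the mean and SD over 4 libraries. Values in the nearest group run from 0.38 to 1.22, and the means of the other groups from 0.04 to 0.13.

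Close co-signal was not particular to this peak. The same measure was computed for other peaks held by a like number of cells (0.5 to 2 times as many with at least 2 cut sites). Only those with at least 100 cut sites within 10 kb were used, against all other cells of the library without matching. Its median was 0.27 over 437 peaks in WT replicate 1, 0.30 over 1068 in WT replicate 2, 0.27 over 2847 in Fam5snv/snv replicate 1 and 0.38 over 4635 in Fam5snv/snv replicate 2, and between 72.8% and 84.3% of these peaks were above 0. The cRE1–cRE2 peak had 1.16, 0.27, 0.37 and 0.96 by this measure. In WT replicate 1, 2.29% of the other peaks were at or above that value and in Fam5snv/snv replicate 2 8.67%, but in WT replicate 2 52.5% were and in Fam5snv/snv replicate 1 37.4%. The peak was thus high among like peaks in 1 library of each genotype and near the middle in the other. Peaks near each other are not independent, so these shares are a description.

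Cells with more cut sites in the defining peak did not show a uniformly higher level within 10 kb. In cells with 2 cut sites in the peak, the level within 10 kb was 170, 85.2, 105 and 109 CPM, against 236, 98.0, 68.7 and 70.2 in cells with at least 4. The value was higher in the latter in both WT libraries and lower in both Fam5snv/snv libraries. With at least 4, however, it rested on 22, 18, 47 and 20 cut sites in 11, 6, 16 and 8 cells. The share of cells with such signal was 14.1%, 14.9%, 21.9% and 20.1% with 2 cut sites in the peak. With at least 4 it was 26.8%, 24.0%, 25.4% and 17.0%, lower only in Fam5snv/snv replicate 2. A genotype difference in this was not tested. These groups were not matched on depth, and cells with at least 4 were deeper in every library. Their median totals were 1913, 4697, 5082 and 4158 cut sites, against 1210, 2602.5, 3999 and 3421.5 in cells with 2. The shares of cells with signal therefore do not separate the count in the peak from depth. Cells with none had 78.6, 72.6, 70.1 and 50.5 CPM. The few cells just under the threshold, with 1 cut site, had 8, 2, 8 and 0 cut sites there in 5, 2, 7 and 1 cells.

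At Gata3, the partner of Gata2 in IEE specification, members were slightly higher, by an amount that depended on the cells compared. In peaks within 100 kb of its start they had 36, 140, 226 and 125 cut sites against 76, 239, 484 and 294 in matched cells, or log2 ratios of 0.45, 0.43, 0.09 and 0.33 with a mean of 0.32 ± 0.166 (SD, n = 4, higher in 4 of 4 libraries, at the floor of the exact test). The mean was 0.077 for members with at least 4 cut sites (exact sign-flip p = 0.625), 0.23 without the 5% deepest cells (exact p = 0.5) and 0.23 with members matched within 10% (exact p = 0.375). In single regions the change was smaller and within its error. The region over the main Gata3 promoter (chromosome 2, 9876766 to 9886181) had 25, 70, 119 and 60 cut sites in members and 63, 130, 257 and 159 in matched cells, which gave 0.20 on the log2 scale (standard error 0.18, 95% interval from −0.16 to 0.55, edgeR adjusted p = 1.00). A cut site was present there in 102 of 889 members and 248 of 2667 matched cells, a difference of 2.38 ± 1.32 percentage points (SD, n = 4, higher in 4 of 4 libraries, at the floor of the exact test). The second region at Gata3 (9888735 to 9891465) had 1, 10, 19 and 7 against 3, 29, 48 and 22, at a log2 of −0.16 (standard error 0.49).

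In the windows around Hoxb1, the r4 identity gene, and Isl1, the motor neuron gene, the libraries did not go in 1 direction. Within 100 kb of Hoxb1, members had 163, 261, 827 and 405 cut sites and matched cells 378, 622, 1671 and 1339, and the log2 ratio was above 0 in 2 of 4 libraries with a mean of 0.07 ± 0.215 (SD, exact sign-flip permutation p = 0.625). The 10 tested regions there, which extend over the Hoxb genes to Skap1, ran from −0.53 to 0.23 in log2 fold change, and none had an unadjusted p under 0.05. The Hoxb1 promoter region (chromosome 11, 96363483 to 96367459) held 18, 10, 66 and 31 cut sites in members and 36, 21, 144 and 96 in matched cells (log2 0.15, standard error 0.28). The share of cells with a cut site in this promoter region was higher in members by 1.32 ± 0.762 percentage points (SD, n = 4, higher in 4 of 4 libraries, at the floor of the exact test). Within 100 kb of Isl1, members had 39, 67, 219 and 122 and matched cells 113, 133, 462 and 388, with a mean log2 ratio of 0.05 ± 0.138 (SD, 2 of 4 above 0, exact p = 0.75). The Isl1 promoter region (chromosome 13, 116308210 to 116310983) held 13, 16, 59 and 22 against 31, 36, 121 and 68 (log2 0.11, standard error 0.29), with a share of cells 1.24 ± 1.16 percentage points higher in members (SD, higher in 3 of 4 libraries, exact p = 0.25), and the 4 Isl1 regions ran from −0.30 to 0.38.

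Across the genome, 6 of 32102 tested regions (0.0187%) passed an adjusted p of 0.05 by edgeR, 4 higher and 2 lower in members, and none did by DESeq2. At an unadjusted p under 0.05, 579 regions were higher and 733 lower by edgeR, and 308 and 279 by DESeq2. The median log2 fold change over all regions was −0.02. Between 36.2% and 50.1% of the members' cut sites lay in promoter peaks, and the difference, members minus matched cells, was −1.28 ± 1.14 percentage points (SD, lower in 4 of 4 libraries, at the floor of the exact test), and −0.752 without WT replicate 2.

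The 4 higher regions were loci in which WT replicate 2 and Fam5snv/snv replicate 1, the libraries with unmatched deep members, moved apart from the others. The region over the predicted gene Gm10800 (chromosome 2, 98666042 to 98667506) had 86, 386, 352 and 56 cut sites in members and 210, 256, 243 and 194 in matched cells, or log2 ratios of 0.24, 1.79, 1.72 and −0.23. The edgeR estimate was 1.01 (standard error 0.15, adjusted p = 1.29e-05). Over Gm21738 (chromosome 14, 19415531 to 19419899) the ratios were −0.42, 1.95, 1.77 and −0.27, over Gm33838 (chromosome 9, 35305024 to 35306327) −0.49, 2.01, 1.84 and −0.11, and over Gm10801 (chromosome 2, 98662030 to 98665412) 0.00, 1.61, 1.49 and −0.38. Repeat-masked bases made up 67.6%, 80.3%, 57.7% and 39.9% of these regions, and the share over all tested regions is not given here. The 5 deepest members held between 45.9% and 54.9% of the members' cut sites in them in WT replicate 2, between 41.7% and 48.3% in Fam5snv/snv replicate 1 and between 35.7% and 61.9% in WT replicate 1, where the ratios ran only from −0.49 to 0.24, whereas of all member cut sites they held 23.8%, 12.5% and 11.6%. Without the 5% deepest cells of each library none of the 4 passed, and the estimates were −0.08, 0.34, 0.54 and −0.04. Without WT replicate 2 none passed either, at 0.69, 0.60, 0.67 and 0.51, and without Fam5snv/snv replicate 1 only Gm10800 did, at 0.72 beside 0.64, 0.74 and 0.56. Gm10801 was also lost without WT replicate 1, at 1.10.

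The 2 lower regions were lower in 3 of 4 libraries. That of chromosome 17 (39842788 to 39849035), over Gm42418 and AY036118, had 1660, 1564, 8482 and 1332 cut sites in members and 6921, 9040, 17968 and 7648 in matched cells, with log2 ratios of −0.53, −1.33, 0.10 and −0.96. Its estimate was −0.66 (standard error 0.07, edgeR adjusted p = 3.37e-13), and it was −0.95 without the 5% deepest cells (edgeR adjusted p = 6.17e-15). This standard error rests mostly on a dispersion shared over all tested regions and does not cover the spread of the 4 ratios. Within Lars2, a mitochondrial leucyl-tRNA synthetase gene (chromosome 9, 123461594 to 123462391), members had 24, 18, 183 and 26 and matched cells 161, 205, 411 and 202, an estimate of −1.01 (standard error 0.19, edgeR adjusted p = 0.00531). The Lars2 call was lost without the 5% deepest cells (−1.26, edgeR adjusted p = 0.122), with members matched within 10% (−1.17, edgeR adjusted p = 0.248), and without WT replicate 1 (−0.93), WT replicate 2 (−0.67) or Fam5snv/snv replicate 2 (−0.88), and its estimate was −1.60 without Fam5snv/snv replicate 1. In both regions Fam5snv/snv replicate 1 was at or slightly above 0 (0.10 and 0.02) and WT replicate 2 was lowest (−1.33 and −2.31).

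**Figure D5:**
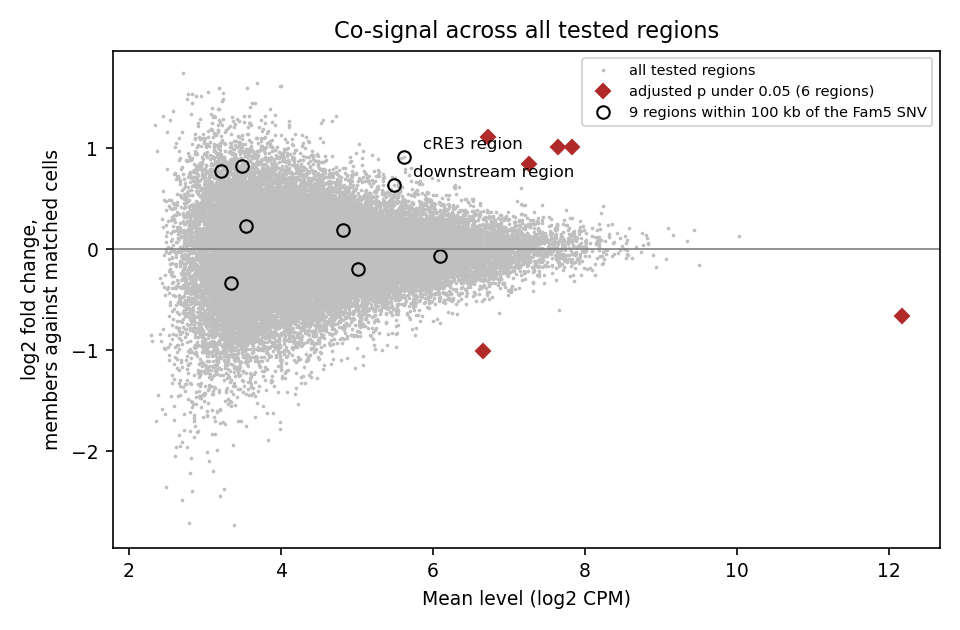
log2 fold change of members against matched cells (y axis) by mean level (x axis, log2 CPM) for 32102 tested regions, with the 6 called regions as red diamonds and the 9 regions within 100 kb of the SNV as open circles. The 6 called regions are among those of high level, and the cRE3 (0.91) and downstream (0.63) regions lie at the upper edge of regions of their level.

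Next in order, and not called in the main comparison, were regions at or between genes. The promoter of Uck2, a uridine kinase gene (chromosome 1, 167236880 to 167243905), was the fifth of the higher regions, with 96, 75, 238 and 119 cut sites in members and 138, 144, 406 and 218 in matched cells, a log2 fold change of 0.60 (standard error 0.14, higher in 4 of 4 libraries, edgeR adjusted p = 0.21), and it passed with counts halved, at 0.60, but had 0.058 for members with at least 4 cut sites. Among the lower regions, one between genes on chromosome 11 (109011446 to 109012298) had −0.61 (standard error 0.14, adjusted p = 0.0775 by edgeR) and the Cnnm2 promoter −0.63 (standard error 0.16, edgeR adjusted p = 0.570), each lower in 4 of 4. The log2 ratios of the chromosome 11 region were −0.53, −1.34, −0.06 and −0.76. They were lowest in WT replicate 2 and highest in Fam5snv/snv replicate 1, as in the called lower regions. A region in Lsamp, a neuronal adhesion gene, had 0, 3, 3 and 0 cut sites in members and 17, 10, 45 and 37 in matched cells.

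The promoters of 10 lists of cell-type and pathway genes were compared in the same way, and none passed. Of 113 genes, 93 had a tested promoter region, in 105 regions, where 0 were higher and 4 lower at an unadjusted p under 0.05 (edgeR, smallest adjusted p = 1.00; DESeq2 called none of 32102 regions). Over all tested regions, 1.8% were higher and 2.28% lower by this measure. The median log2 fold change was −0.10 for the GATA and efferent list (7 of 7 genes measured), 0.09 for branchial motor neuron genes (16 of 18), 0.04 for rhombomere and Hox genes (12 of 15) and −0.03 for COUP-TF genes (4 of 4), beside −0.02 over all regions. It was 0.14 for progenitor genes (12 of 13), 0.04 for neuronal genes (14 of 14), −0.09 for V2b and other interneuron genes (8 of 13), 0.12 for blood and endothelial genes (7 of 14), 0.05 for neural crest and mesenchyme genes (8 of 9) and −0.22 for housekeeping genes (9 of 10). Each list therefore lay within 0.25 of no change.

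Among the named members of these lists, values were small or poorly determined. In the GATA list, Tal1, a partner of GATA factors, had 0.44 (standard error 0.36), and Ldb1, which bridges such complexes, had −0.33 (standard error 0.15, unadjusted p = 0.0321, lower in 4 of 4). The shared promoter region of Slc18a3 and Chat, cholinergic genes, had −0.32 (standard error 0.21). Of the hindbrain genes, Hoxb2 had 0.21 (standard error 0.20) and Egr2, a factor of the neighbouring rhombomeres, −0.39 (standard error 0.23). Sox9 and Hes1, progenitor factors, had −0.93 (standard error 0.34, unadjusted p = 0.00822) and −0.50 (standard error 0.20, unadjusted p = 0.0136), against 0.32 (standard error 0.17) for Notch1. Hes1 was chosen after its values were seen, as 1 of the 4 lower regions. Elavl4, a neuronal RNA-binding gene, had −0.61 (standard error 0.35) in 1 of its promoter regions. The interneuron factor Lhx1 had −0.25 (standard error 0.35).

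The lists for cells other than neurons of the dissected tissue moved no further. Sox18, an endothelial factor, had 0.29 (standard error 0.19) and Runx1, a blood factor, −0.31 (standard error 0.29). Snai2, a neural crest factor, had 0.43 (standard error 0.48) and Col1a1, a collagen gene, −0.79 (standard error 0.43). Gapdh, a housekeeping gene, had −0.41 (standard error 0.15, unadjusted p = 0.0078) and Tbp 0.27 (standard error 0.28). Of the COUP-TF genes, Nr2f1 itself had 0.01 (standard error 0.14), Nr2f6 0.15 (standard error 0.10), and the 3 regions of Nr2f2 −0.25, −0.07 and 0.35. Syt4 had 0.42 (standard error 0.58), the Shox2 regions −0.08 and 0.15, and Cdh8 no tested promoter region. NR2F1 signal at a marker's promoter is not its expression, so these values do not assign members to a cell type.

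Whether members differed from matched cells by another amount in Fam5snv/snv than in WT was tested as an interaction. At the cRE3 region the difference, Fam5snv/snv minus WT, was −0.11 (standard error 0.48) and at the downstream region −0.37 (standard error 0.50), both with edgeR adjusted p = 1.00. It was 0.57 (standard error 0.41) at the upstream and −0.48 (standard error 0.61) at the downstream Gata2 promoter. Of 32102 regions, 1 (0.00312%) passed, the high-count region of chromosome 17 described above, where the difference was 0.53 (standard error 0.09, edgeR adjusted p = 0.000161). Per library the WT values there were −0.53 and −1.33 and the Fam5snv/snv values 0.10 and −0.96, which overlap. At an unadjusted p under 0.05, 998 regions had a higher and 617 a lower difference, and DESeq2 called none, with 253 and 182 under 0.05.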

How the data were processed

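The authors sequenced 10x single-cell libraries and deposited, per library, a matrix of counts of cut sites per peak and cell, with its peaks and barcodes; per the labels these came from Cell Ranger ATAC on mm10. The matrix headers give software_version 1.2.0, whereas the study's methods name a later version of Cell Ranger ATAC. Doublets were not called here, and their treatment in these matrices is not given in the sources used here. Peaks were called per library, so peaks that overlapped by at least 1 base were merged into 263639 regions. The 35809 with a peak in every library were kept, without the defining region, and the 32102 that reached 20 cut sites (members plus matched cells) in 2 or more libraries were tested. Cut sites were summed over members and over 3 matched cells per member (nearest in total, without replacement, deepest members first). The sums were tested with edgeR 4.0.16 (TMM, quasi-likelihood, library as a block, Benjamini-Hochberg), and DESeq2 1.42.0 was an alternative. In simulated data, edgeR recovered 44% of 2-fold and 100% of 4-fold rises, and 20% of falls to 0.5 and 74% of falls to 0.25. It made 11 false calls there, so 2-fold changes were often missed and a few calls can be false. Matching within 10% and the comparison with other peaks were added after seeing the data. Window ratios were tested over 4 libraries. Promoter regions overlap 1 kb on either side of a protein-coding start (GENCODE M21). Named regions were all tested within 100 kb of the SNV and of Gata3, Hoxb1 and Isl1, the 5 of smallest p in each direction, and per list those of smallest p (1 in each direction, or 2 where all go one way), besides Nr2f1, Nr2f2, Nr2f6, Syt4, Shox2 and Cdh8. Hes1 was added after its values were seen, and some genes that the rule names are not reported here. The members and lists were chosen with earlier results of these data known. The libraries are pools of embryos, so the exact tests measure the spread between these pools. The edgeR tests had 3 residual degrees of freedom but about 117 in all. Most of their error thus came from a dispersion shared over all tested regions. A small edgeR p therefore does not show that a difference exceeds the spread between pools. WT and Fam5snv/snv libraries share replicate numbers, and nothing in the labels ties them by litter or day.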

Additional observations from a re-analysis of the deposited data

Results flagged for a closer look

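The region of chromosome 17 from 39842788 to 39849035 differed between genotypes in the co-signal of members, with an interaction log2 value of 0.53 (standard error 0.09, edgeR adjusted p = 0.000161). The log2 ratio of members over matched cells was −0.53 and −1.33 for WT against 0.10 and −0.96 for Fam5snv/snv, which overlap. Without WT replicate 2, and likewise without Fam5snv/snv replicate 1, 0 regions passed. By DESeq2 the value was 0.49 and did not pass. The libraries whose deepest members had no equal in depth, WT replicate 2 and Fam5snv/snv replicate 1, had the lowest and the highest of these values.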

How the results depend on the processing

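Members above matched cells within 10 kb kept their direction under all 12 alternatives, with mean log2 ratios from 0.64 to 1.26. The cRE3 estimate stayed positive under all 15, from 0.37 (members with at least 4 cut sites) to 1.37 (without the 5% deepest cells), and never passed the adjusted threshold; its smallest adjusted p by edgeR was 0.143. The downstream region ran from 0.32 to 1.07. The 112 regions of the lists and around Gata2 were called in 0 of 1605 alternative fits. Depth limits all of this: a cRE3 value rests on 29 to 90 cut sites per library in members.

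The 6 regions called genome-wide became 0 with DESeq2, 3 with 1 matched cell per member, 1 with a threshold of 4 cut sites, 1 without the 5% deepest cells and 1 with members matched within 10%, an alternative chosen after seeing the data, and 9 with counts halved; leaving out 1 library gave 1 to 7, with 1 without WT replicate 2. The 1 region of the genotype difference became 0 with DESeq2, 0 with 1 matched cell and 0 matched within 10%, and 0 to 17 when 1 library was left out, 17 without WT replicate 1 and 0 without WT replicate 2 or Fam5snv/snv replicate 1. With the replicate block, a term for replicate number, the count was 1 as in the main fit. Nothing in the labels ties libraries of the same number, so this is not a known pairing.

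Directions turned as follows. The mean log2 ratio around Hoxb1 was −0.040 without the 5% deepest cells, −0.037 matched within 10%, and −0.016 to 0.14 with 1 library left out. Around Isl1 it was −0.29 with the threshold of 4, and −0.0030 to 0.10 with 1 library left out. The upstream Gata2 promoter had 0.045 without matching, 0.012 matched on peaks, 0.073 with halved counts, and −0.39 to 0.17 with 1 library left out. With the threshold of 4, the Gata3 promoter had −0.15 and the Isl1 promoter −0.16, the latter also −0.19 without the 5% deepest cells. There the Gm10801 and Gm10800 regions had −0.039 and −0.077, and Gm10800 had −0.15 matched within 10%. The causes were not tested.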
